A study of Rattus norvegicus with 8 samples.

Results

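A set of 9 genes of neutrophil products and the phagocyte oxidase were followed in rat colon: S100a8, S100a9, Mpo, Csf3r, Fpr1, Trem1, Ncf1, Cybb and Cyba. They were selected by symbol, as the probes whose gene name in the scanner files equals a member, and each of the 9 genes had 1 such probe among the 30367 probes of the array. The RNA came from the colon of female Wistar rats aged 14 weeks, with 2 one-colour Agilent arrays in each of 4 groups. Healthy rats ate a diet enriched with sunflower oil for 8 weeks and received no DSS (dextran sulfate sodium, a sulfated sugar polymer that damages the gut epithelium). The n-6 colitis, ALA colitis and fish oil colitis groups ate sunflower oil, alpha-linolenic acid (ALA, an n-3 fatty acid of plants) or fish oil (a source of eicosapentaenoic and docosahexaenoic acid) for 8 weeks, and all received 5% DSS for 7 days. The groups had 6 healthy rats and 10 rats each with colitis, and every array carried RNA pooled from 6 rats. Both healthy arrays thus hold the same 6 rats, and the 2 arrays of a colitis group must share some of their 10. No group has independent biological replicates, and the labels do not say whether its arrays carry the same pool. The p-values therefore measure only the spread between arrays, which may be technical. The study compared the n-3 diets with the n-6 diet in colitis, and only the healthy group lacked DSS.

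Neutrophils are short-lived white blood cells that enter the injured gut wall from the blood. S100a8 and S100a9 form calprotectin, a calcium- and metal-binding complex that fills their cytosol and whose faecal level is a clinical measure of gut inflammation. Mpo is the peroxidase of their granules, Csf3r the receptor for the granulocyte growth factor G-CSF, Fpr1 a receptor for bacterial formyl peptides, and Trem1 a receptor that amplifies inflammatory signalling through the adaptor Tyrobp. Cybb (gp91phox) and Cyba (p22phox) form the membrane core of the NADPH oxidase, which makes superoxide, and Ncf1 (p47phox) is a cytosolic subunit that joins them when a cell is activated. Macrophages and B cells express oxidase subunits too, and Cyba also serves oxidases of other cells.

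Each level rests on 1 probe of 60 bases, printed in 2 spots per array for 8 of the 9 genes and in 1 spot for Trem1. On the rn4 build, the S100a8 and S100a9 probes lie at chr2:182962328-182962387 and chr2:182987647-182987706, the Csf3r probe at chr5:145393491-145393550 and the Cybb probe at chrX:25518505-25518564. Those of S100a8 and Csf3r are on the plus strand and those of S100a9 and Cybb on the minus strand. The array lists S100a8 under NM_053822, S100a9 under NM_053587, Csf3r under NM_001106685 and Cybb under NM_023965. Their exon was not analysed here. The probe letters, 5′ to 3′, are shown for these 4 genes because they gave the largest differences between colitis and healthy colon.
S100a8: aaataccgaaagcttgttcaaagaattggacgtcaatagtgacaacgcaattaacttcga
S100a9: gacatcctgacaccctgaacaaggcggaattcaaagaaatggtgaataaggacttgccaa
Csf3r: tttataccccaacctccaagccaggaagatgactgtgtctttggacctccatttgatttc
Cybb: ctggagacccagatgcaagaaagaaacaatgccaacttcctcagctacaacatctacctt
Neighbouring S100 genes resemble each other, but the longest run that a member's probe shared with another gene's probe was 12 to 16 bases over the 9 members.

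Not all 9 genes were measurable. The scanner software marks a spot as well above background when its signal clearly exceeds the local background. S100a9, Ncf1 and Cyba were marked in 16 of 16 spots, Cybb in 15, Csf3r in 11 and S100a8 in 10 of 16. Fpr1 was marked in 3 of 16 spots, Mpo in 1 of 16 and Trem1 in 1 of 8. In 12 of its 16 spots the Mpo signal was a surrogate, a small value that the software puts in place of a signal not above background. A gene was tested where some group had both of its arrays well above background for the probe. Of the 9 genes, 6 met this and Mpo, Fpr1 and Trem1 did not. S100a8 and Csf3r met it in n-6 and ALA colitis and were marked on 1 of 2 arrays in healthy colon and in fish oil colitis, so they entered only through the groups where they are high.

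Levels below are in log2 units, counted from each array's own 75th percentile of signal (0 is the signal that 75% of probes lie under). They set a gene against itself across groups, not against another gene. S100a8 had levels of -4.60 and -6.63 in healthy colon, -1.09 and -3.02 in n-6 colitis, -2.08 and -4.08 in ALA colitis and -4.24 and -4.64 in fish oil colitis. Both n-6 and both ALA arrays lay above both healthy arrays, while fish oil and healthy overlapped. The partner subunit S100a9 had levels of -2.19 and -3.33 in healthy colon, 0.12 and -1.63 in ALA colitis, -0.49 and -1.10 in fish oil colitis and 0.67 and -0.97 in n-6 colitis. All 6 colitis arrays exceeded both healthy arrays, and the 3 colitis groups overlapped. The replicates of S100a8 lay 1.93 to 2.03 apart in every group but fish oil (0.40), and those of S100a9 lay 0.61 to 1.75 apart. In each group replicate 1 was the higher of its pair for S100a8 and for S100a9.

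The G-CSF receptor Csf3r had levels of -4.87 and -5.47 in healthy colon, -4.17 and -4.40 in ALA colitis, -4.16 and -4.71 in fish oil colitis and -3.40 and -3.78 in n-6 colitis. Both n-6 arrays were above all 6 others, and the healthy arrays were below all 6 colitis arrays. The 2 other receptors gave little signal. Fpr1 was at -4.19 and -6.23 in healthy colon, -4.95 and -4.94 in n-6 colitis, -5.55 and -6.26 in ALA colitis and -5.51 and -6.43 in fish oil colitis. It was well above background on n-6 replicate 1 and in 1 of 2 spots on healthy replicate 1, where the spots differed by 3.48 (log2). Fpr1 was not well above background on either ALA array, so its mean n-6 level was set against the lowest signal counting as above background. That gave n-6 colitis 1.34-fold over ALA colitis, and healthy colon 1.11-fold over ALA colitis by the same rule. Each mean includes 1 array not well above background, so neither value is a firm lower limit. Against fish oil no such value was above 1. Trem1 was at -5.35 and -7.31 in healthy colon, -4.85 and -6.73 in n-6 colitis, -6.62 and -6.54 in ALA colitis and -5.57 and -5.88 in fish oil colitis. It was well above background on n-6 replicate 1 alone, and healthy and n-6 arrays overlapped.

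The arrays measure RNA and not protein. RNA of the granule peroxidase Mpo was not well above background on any colitis array. Its levels were -5.56 and -5.52 in healthy colon, -7.42 and -6.36 in n-6 colitis, -6.65 and -7.37 in ALA colitis and -5.77 and -7.15 in fish oil colitis. The 1 spot above background was on healthy replicate 2. All colitis arrays were thus listed below both healthy arrays, but all 4 group means lie near background and no fold can be given. Among granule proteins of the same cells, Elane, Prtn3 and Ngp were not well above background on any of the 8 arrays. Ctsg was on 1, Mmp8 on 2, Mmp9 on 3 and Chi3l1 on 5. Ltf and Lcn2 were well above background on 7 arrays, and Camp, Cd177, Retnlg, Padi4 and Lyz2 on all 8. In bulk tissue, fewer cells of a type and less RNA per cell cannot be told apart.

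Of the oxidase genes, Cybb followed colitis most evenly. It had levels of -4.45 and -4.53 in healthy colon, -3.38 and -2.72 in ALA colitis, -3.46 and -3.73 in fish oil colitis and -2.85 and -3.67 in n-6 colitis. All 6 colitis arrays exceeded both healthy arrays, and the colitis groups overlapped except that ALA lay above fish oil. Ncf1 had levels of 1.87 and 1.85 in healthy colon, 2.09 and 1.90 in fish oil colitis, 2.95 and 2.27 in n-6 colitis and 1.95 and 3.41 in ALA colitis. ALA replicate 2 and n-6 replicate 1 stood apart from the other 6 arrays, which lay between 1.85 and 2.27. Cyba had levels of 6.70 and 6.29 in healthy colon, 7.03 and 6.62 in ALA colitis, 6.35 and 7.30 in n-6 colitis and 7.76 and 7.11 in fish oil colitis. The fish oil arrays were above both healthy arrays, and n-6 and ALA overlapped with healthy.

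**Figure D1:**
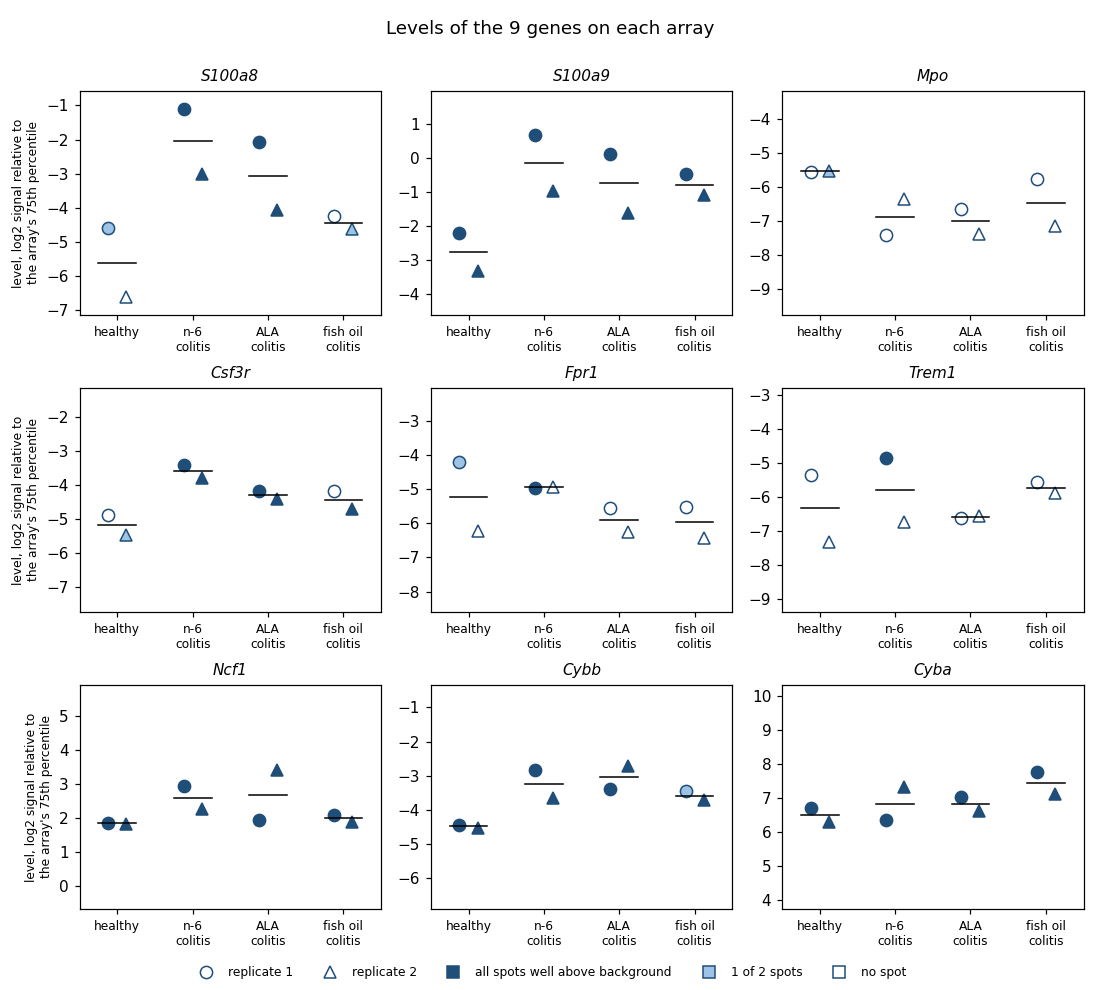
Level of each of the 9 genes on each array, as log2 signal relative to the array's 75th percentile, by group; circles are replicate 1, triangles replicate 2, lines the mean of 2 arrays, and the fill shows whether the spots were well above background. All panels span the same 6.6 log2 units, S100a8 and S100a9 show wide gaps between replicates, and the Mpo, Fpr1 and Trem1 panels hold mostly open symbols.

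The duplicate spots show how much of these gaps lies within an array. For S100a9 the 2 spots of an array differed by a median of 0.0625 (log2) and the 2 replicate arrays of a group by a median of 1.39. The corresponding values were 0.0169 and 0.436 for Ncf1, 0.0243 and 0.532 for Cyba, and 0.308 and 1.97 for S100a8. For these 4 genes the gap between arrays was far above that between spots. Csf3r differed from them, with close medians of 0.479 between spots and 0.463 between arrays. An array's value is the mean of its 2 spots, so these medians do not settle which spread is wider.

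**Figure D2:**
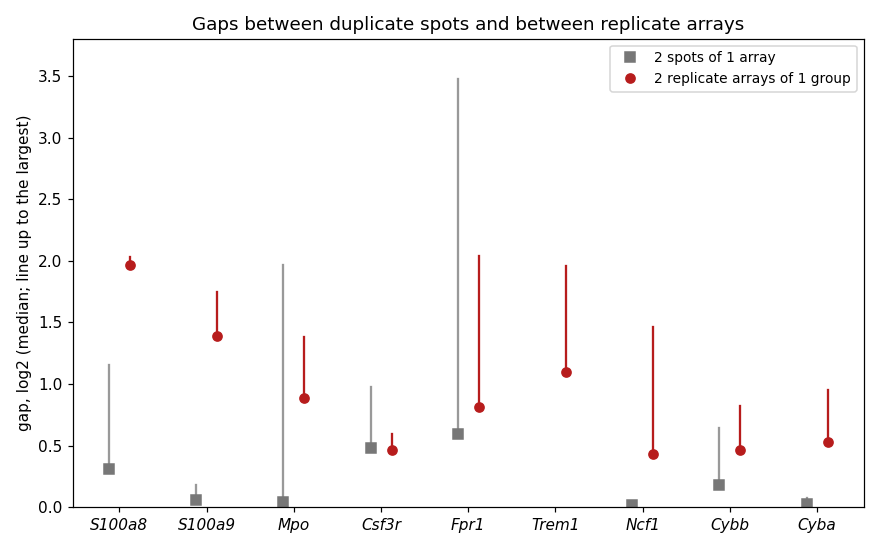
Gap in log2 units between the 2 spots of 1 array (grey squares, median over 8 arrays) and between the 2 replicate arrays of 1 group (red circles, median over 4 groups) for each gene, with lines up to the largest gap; Trem1 has 1 spot per array. The S100a9 medians are 0.0625 and 1.39, whereas those of Csf3r are 0.479 and 0.463, and the largest gap between spots is that of Fpr1 at 3.48.

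Setting n-6 colitis against healthy colon asks what differed with DSS on the same oil. The calprotectin genes gave the largest differences of the 6 tested members, but none of the 6 passed the adjusted threshold of 0.05. S100a8 had a mean level of -2.06 ± 1.36 (SD, n = 2) with n-6 colitis against -5.62 ± 1.44 without DSS, a difference of 3.56 on the log2 scale (SE 0.963, 95% interval 1.28 to 5.83, limma adjusted p = 0.202). Its signal was well above background on 1 of the 2 healthy arrays, and there in 1 of 2 spots, so the size of this difference is not settled. S100a9 was at -0.15 ± 1.16 and -2.76 ± 0.801, a difference of 2.61 (SE 0.774, interval 0.79 to 4.44, limma adjusted p = 0.224). Csf3r differed by 1.58 (SE 0.362, interval 0.72 to 2.43, limma adjusted p = 0.169) and Cybb by 1.23 (SE 0.394, interval 0.30 to 2.17, limma adjusted p = 0.248). The intervals of Ncf1 (0.75, from -0.45 to 1.96) and Cyba (0.33, from -0.70 to 1.36) included 0.

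For 5 of the 6 tested members both n-6 arrays exceeded both healthy arrays, as they did for 23.8% of the 18165 genes tested. Of the 6, 4 had an unadjusted p under 0.05 and a higher level in n-6 colitis, against 6.61% of all genes. S100a8 and Csf3r, which entered only through groups where they are high, are 2 of the 4, so the count is a description and no support. Where only genes well above background on all 8 arrays were kept, 2 of 4 members were higher at that level. The same count held in ALA colitis, in fish oil colitis and in the 3 colitis groups averaged, which share the healthy arrays. Of the 13826 genes kept, 2242 had an unadjusted p under 0.05 in either direction for n-6 against healthy. There were 792 for ALA, 449 for fish oil and 1203 for the 3 groups averaged. With fish oil or both n-3 diets against n-6, 0 of 4 were lower, where 1945 and 1354 kept genes differed in either direction. Over all 18165 genes of the main setting, 7 passed the adjusted threshold, or 0.0385%. The median difference was 1.41 over the 6 tested members and 0.75 over all 9, where that of all genes was 0.03 and the middle 50% of genes ran from -0.45 to 0.43. The 4 members with an unadjusted p under 0.05 became 1 without n-6 replicate 1, 2 without healthy replicate 2 and 2 with normexp background correction. With every signal under the dimmest array's background limit raised to that limit, an alternative chosen after seeing the data, the S100a8 difference was 2.21 and that of Csf3r 0.67. With normexp they were 1.36 and 0.53.

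RNA of other cells moved with the same comparison. Of 10 tested macrophage and monocyte markers, 7 were higher at an unadjusted p under 0.05 (6.61% of all genes). Of these markers 0 passed the adjusted threshold. Their summed level was 4.18 to 4.50 in healthy colon, 5.51 on both n-6 arrays, 5.01 to 5.41 in ALA and 4.81 to 5.37 in fish oil colitis. Ccr2 of that list was not well above background on any array. Red cell genes rose in n-6 colitis, with 4 of 5 tested past the adjusted threshold (0.0385% of all genes). Hba-a1, a globin, rose by 4.90 (SE 0.311, limma adjusted p = 0.00946), and Hbb and Hbb-b1 by 4.64 and 5.30. A globin probe may also take up RNA of closely similar globins. Alas2, which starts haem synthesis in red cell precursors, was at least 43.6-fold higher, being not well above background on either healthy array. Its limma adjusted p of 0.0381 belongs to the measured difference and not to this bound. No gene passed without either healthy array, either fish oil array or n-6 replicate 1. The summed red cell level was 7.47 to 8.06 in n-6 colitis against 2.80 to 3.88 on the other 6 arrays. Of 12 colon epithelium markers all but Aqp8 were well above background on every array, with a summed level of 7.54 on n-6 replicate 1 and 8.55 to 9.58 on the other 7. Of 9 smooth muscle and fibroblast markers, 5 were higher at an unadjusted p under 0.05 and 0 passed the adjusted threshold, with a median difference of 1.03. Their summed level of 8.08 to 8.46 in n-6 colitis overlapped with 7.44 to 8.16 in healthy colon. Of eosinophil and mast cell markers 1 of 6, and of endothelial markers 1 of 5, were higher at that level. The part of macrophage, blood, epithelial and smooth muscle RNA in the members' differences was not tested.

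The sum of lymphocyte markers was highest on the same 2 arrays as Ncf1 and Cybb. The summed level of 8 tested B and T cell markers was 4.74 on ALA replicate 2 and 4.44 on n-6 replicate 1, against 1.82 to 2.99 on the other 6 arrays. On these arrays Ncf1 was at 3.41 and 2.95 and Cybb at -2.72 and -2.85, above the other 6 arrays for each gene. A sum leans on the brightest markers. Of the 8, 2 had a mean below healthy in n-6 colitis and 2 in ALA colitis (48.4% and 47% of all genes). In that list, Cd4 was well above background on 1 of 8 arrays and Cd3e on all 8. The part of lymphocytes in the Ncf1 and Cybb levels was not tested.

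The other colitis groups gave differences from healthy colon of the same sign in the 6 tested members. They share the healthy arrays, so their values are set side by side. S100a9 differed by 2.01 in ALA and 1.97 in fish oil colitis, and S100a8 by 2.54 and 1.18. Cybb differed by 1.44 and 0.90, Csf3r by 0.88 and 0.73, Ncf1 by 0.82 and 0.14 and Cyba by 0.33 and 0.94. In ALA colitis 5 of 6 members lay above healthy without overlap (22.4% of all genes) and 4 reached an unadjusted p under 0.05 while higher (4.34% of all genes). S100a8 and Csf3r, which entered only through groups where they are high, are in both counts. The counts are thus a description and no support. That count of 4 became 1 without healthy replicate 2 and 2 without either ALA array, 1 with normexp or the common floor, and 2 with the deposited table or only the groups compared. In fish oil colitis 5 of 6 lay above without overlap (18.3% of all genes) and 1, S100a9, reached an unadjusted p under 0.05 (1.8% of all genes). That 1 became 0 without healthy replicate 2 or either fish oil array, and with the deposited table or the common floor, but 3 without either n-6 array or with the replicate block. The limma adjusted p ran from 0.705 to 0.893 for ALA and from 0.995 to 0.999 for fish oil, so no member passed.

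With the 3 colitis groups averaged, S100a8 differed from healthy colon by 2.42 (SE 0.786, limma adjusted p = 0.521), S100a9 by 2.20 (SE 0.632, adjusted p = 0.474), Cybb by 1.19 (SE 0.322, adjusted p = 0.440) and Csf3r by 1.06 (SE 0.296, adjusted p = 0.452). Ncf1 and Cyba differed by 0.57 and 0.54. For S100a9, Csf3r, Ncf1 and Cybb all 6 colitis arrays exceeded both healthy arrays, a pattern that 5.06% of all genes shared. Of the 6 members, 4 had an unadjusted p under 0.05 and a higher level, against 3.97% of all genes. Without healthy replicate 2 that count was 1 of 6, and with normexp or the common floor 2 of 6. S100a8 and Csf3r, which entered only through groups where they are high, are 2 of the 4 members with an unadjusted p under 0.05. Csf3r is also 1 of those above healthy on all 6 colitis arrays, so both counts are a description and no support. No member and no gene of the 18165 passed limma's adjusted threshold here (0% called), and 1449 genes had an unadjusted p under 0.05.

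**Figure D3:**
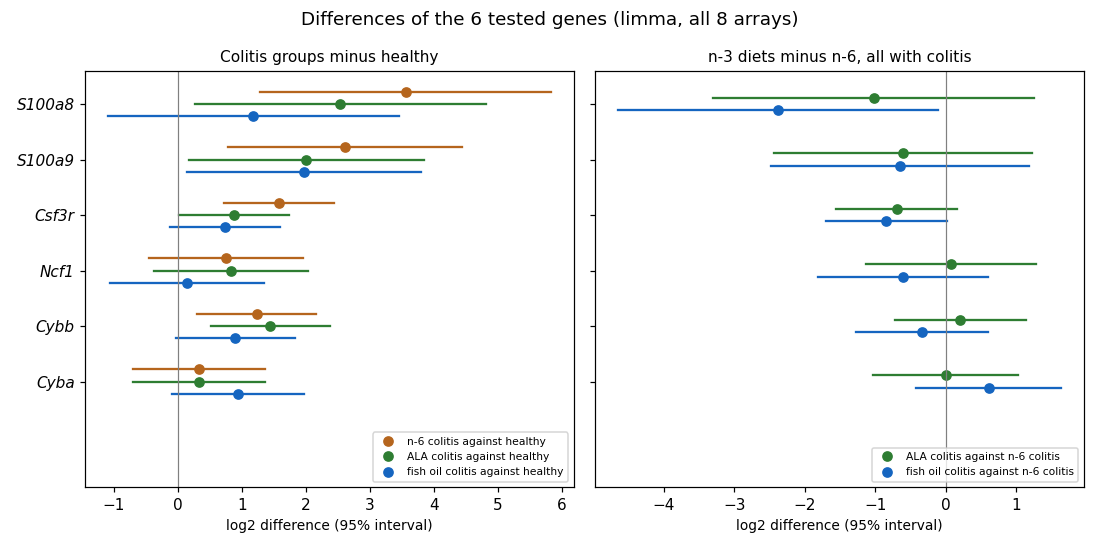
Log2 differences of the 6 tested genes with 95% intervals from limma over all 8 arrays, for the colitis groups minus healthy colon (left) and the n-3 diets minus n-6 with colitis (right). The n-6 minus healthy intervals of S100a8, S100a9, Csf3r and Cybb lie above 0, and on the right only the S100a8 interval for fish oil (-4.66 to -0.11) excludes 0; no difference passed after adjustment over all genes.

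Fish oil was set against n-6 to ask what the diet changed in colitis. S100a8 was at -4.44 ± 0.285 (SD, n = 2) in fish oil and -2.06 ± 1.36 in n-6 colitis, a difference of -2.38 (SE 0.963, 95% interval -4.66 to -0.11, limma adjusted p = 0.408). Csf3r differed by -0.84 (interval -1.70 to 0.01, adjusted p = 0.413) and Ncf1 by -0.61 (-1.81 to 0.59). S100a9, Cybb and Cyba differed by -0.65, -0.34 and 0.61, with overlapping arrays. Thus 3 of 6 members lay below n-6 without overlap, as did 23.6% of all genes, and 1 of 6 had an unadjusted p under 0.05 while lower, against 6% of all genes. S100a8 and Csf3r, which entered only through n-6 and ALA colitis, are in the first count and S100a8 is the second. Both counts are thus a description and no support. That 1 became 0 without n-6 replicate 1 or fish oil replicate 2, and with normexp or the deposited table, but 2 with quantile or median scaling, the common floor or the replicate block. Fish oil replicate 1 was the dimmest array, with 54.0% of probes well above background against 59.8% to 70.1% on the others, and S100a8 and Csf3r were not well above background on it. With normexp the S100a8 difference was -0.61, and Csf3r and Cybb turned to 0.17 and 0.19. Without n-6 replicate 1, S100a9 and Cybb turned to 0.17 and 0.07 and S100a8 was -1.42.

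Markers of other cells differed between these groups too. Of 5 tested red cell genes, 3 fell with fish oil past limma's adjusted threshold (0.0385% of all genes), the globins Hba-a1, Hbb and Hbb-b1, and the list's median was -4.44. The same 3 fell with ALA (0.033% of all genes), with a median of -3.86. Over all genes 0 passed with fish oil without n-6 replicate 1, fish oil replicate 1 or either healthy array, 1 passed without fish oil replicate 2, and 0 passed with ALA when any 1 of the 8 arrays was left out. Of 8 B and T cell markers, 4 were lower with fish oil at an unadjusted p under 0.05 (6% of all genes). The list's median was -2.45 with fish oil and 0.64 with ALA, where 5 of 8 were above 0 (56.1% of all genes). Of 12 epithelial markers 11 were above 0 with fish oil (50.5% of all genes), with a median of 1.14. With ALA 10 were (56.1% of all genes), with a median of 0.59. Of 9 smooth muscle and fibroblast markers 3 were lower with fish oil at that level and 1 with ALA (6% and 2.66% of all genes). Of 10 macrophage and monocyte markers 2 were lower with fish oil and 0 with ALA (the same shares of all genes). Without overlap 5 of the 10 lay below n-6 with fish oil and 5 with ALA (23.6% and 13.2% of all genes). With fish oil 1 lay above. Their medians were -0.29 with fish oil and -0.38 with ALA. The part of these cells in the members' differences was not tested.

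ALA was set against n-6 in the same way. S100a8 differed by -1.02 (95% interval -3.30 to 1.25), S100a9 by -0.61 (-2.44 to 1.22) and Csf3r by -0.69 (-1.55 to 0.16). The oxidase genes differed by 0.07 for Ncf1 (-1.13 to 1.27), 0.21 for Cybb (-0.72 to 1.14) and -0.00 for Cyba (-1.03 to 1.03). Csf3r alone of the 6 lay below n-6 without overlap, against 13.2% of all genes. Of the 6 tested members 0 had an unadjusted p under 0.05 in either direction, where 5.83% of all genes did, and the limma adjusted p ran from 0.897 to 0.999. With quantile scaling, median scaling or the common floor 1 was lower at that level. The intervals include differences of over 1 log2 unit in either direction for 4 of the 6, for Csf3r only downward and for Cybb only upward.

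Averaged over both n-3 diets, Csf3r differed from n-6 by -0.77 (SE 0.314, 95% interval -1.51 to -0.03, limma adjusted p = 0.594). It was the 1 of 6 members below n-6 on all 4 arrays, as were 7.23% of all genes, and the 1 with an unadjusted p under 0.05 while lower, against 3.62% of all genes. Csf3r entered only through n-6 and ALA colitis, so these counts are a description and no support. That 1 became 0 without n-6 replicate 1, ALA replicate 2, fish oil replicate 2 or either healthy array, and with normexp, a robust prior or only the groups compared, but 2 with quantile or median scaling or the replicate block. S100a8 differed by -1.70 (-3.67 to 0.27). Between the n-3 diets, S100a8 was 1.36 higher in ALA than in fish oil colitis (interval -0.92 to 3.64), Ncf1 0.68 and Cybb 0.55 higher, S100a9 0.04 and Csf3r 0.15 higher, and Cyba had a difference of -0.61. S100a8 and Cybb lay above without overlap (25.1% of all genes) and Cyba below (20.5% of all genes), and 0 of 6 had an unadjusted p under 0.05 in either direction (9.51% of all genes), 1 without ALA replicate 1 or with the replicate block. S100a8, which entered only through n-6 and ALA colitis, is among the members above fish oil, so that count is a description too. In none of the 8 comparisons did a member pass the adjusted threshold, under the main setting or any of the 19 alternatives.

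Other genes of the same cells and pathways were grouped in 4 lists, and 0 of their tested genes passed the adjusted threshold in any comparison. Of 14 neutrophil granule genes 9 were tested. In n-6 colitis against healthy, 4 of the 9 were higher at an unadjusted p under 0.05 (6.61% of all genes), 0 were lower, and the median difference was 1.04. Against n-6, 7 of the 9 were above 0 with ALA (56.1% of all genes), with a median of 1.06. With fish oil 3 of 9 were (50.5% of all genes), with a median of -0.06. At that level 0 were lower with ALA and 1 with fish oil (2.66% and 6% of all genes), and 0 were higher. The 3 with the highest level did not go one way. Lyz2, the lysozyme of neutrophils and macrophages, differed by 1.04 (SE 0.288, limma adjusted p = 0.209), whereas Padi4, which citrullinates histones, differed by -1.26 (SE 0.882) and Cd177, a neutrophil surface protein, by -1.80 (SE 1.21).

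Of 14 neutrophil receptor and surface genes 8 were tested, with a median difference of 2.28 between n-6 colitis and healthy. Of the 8, 5 were higher at an unadjusted p under 0.05 (6.61% of all genes). Csf3, the G-CSF that binds Csf3r, differed by 2.66 (SE 1.29, limma adjusted p = 0.410). Itgam (CD11b), an integrin of neutrophils and macrophages, differed by 1.28 (SE 0.346), and C5ar1, the receptor for complement C5a, by 2.30 (SE 0.340, adjusted p = 0.0949). C5ar1 was lower than n-6 by values of -1.27 in ALA and -1.49 in fish oil colitis, both without overlap. Cxcr1, a chemokine receptor named after its values were seen, was well above background on both n-6 arrays and on no healthy or ALA array. It was at least 4.47-fold higher in n-6 than in healthy colon and at least 3.42-fold higher than in ALA colitis. These bounds raise dim signals to the lowest signal counting as above background. The measured differences were 3.77 for n-6 against healthy (limma adjusted p = 0.0917) and -3.38 for ALA against n-6 (limma adjusted p = 0.439). Cxcr2, Fpr2, Fpr3 and Ltb4r were well above background on none of the 8 arrays. Against n-6, 3 of the 8 were lower with fish oil (6% of all genes) and 2 with ALA (2.66% of all genes) at an unadjusted p under 0.05.

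All 12 genes of the list around Trem1, the S100 proteins and the formyl peptide receptors were tested. Each had a difference above 0 between n-6 and healthy (51.6% of all genes), with a median of 0.68. Of the 12, 2 were higher at an unadjusted p under 0.05 (6.61% of all genes). Tyrobp, the adaptor through which Trem1 signals, differed by 1.83 (SE 0.342, limma adjusted p = 0.129) and was lower than n-6 by values of -0.87 in ALA and -1.24 in fish oil colitis. Tyrobp also serves macrophage receptors. Anxa1, a ligand of formyl peptide receptors, differed by 1.68 (SE 0.773) and Stat3, which relays the G-CSF signal, by 0.59 (SE 0.429). Against n-6, 11 of the 12 were below 0 with fish oil (49.5% of all genes) and 7 of 12 with ALA (43.9% of all genes). Of these, 1 of 12 each time had an unadjusted p under 0.05 while lower, against 6% and 2.66% of all genes.

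Of 14 other oxidase genes 12 were tested, with a median difference of 0.74 between n-6 colitis and healthy. Of the 12, 6 were higher at an unadjusted p under 0.05 (6.61% of all genes). Phagocyte partners were among them: Rac2, the small GTPase of the phagocyte oxidase, differed by 1.48 (SE 0.434, limma adjusted p = 0.222), and Ncf4, a cytosolic subunit named after its values were seen, by 1.79 (SE 0.565). The epithelial oxidase genes of the list went both ways. Duox2, which makes hydrogen peroxide at the gut surface, differed by 0.95 (SE 0.337), its relative Duox1 by 1.99 and the maturation factor Duoxa2 by 2.42 (SE 0.451, adjusted p = 0.128). The colon oxidase Nox1 had a difference of -1.82, its activator Noxa1 -1.28 (SE 0.730), its organizer Noxo1 -0.39 and Duoxa1 -0.09. All but Duox2 and Noxa1 of these 7 were named after their values were seen. Against n-6, Ncf4 and Rac2 had differences of -1.38 and -0.94 with fish oil and -0.42 and -0.30 with ALA.

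**Figure D4:**
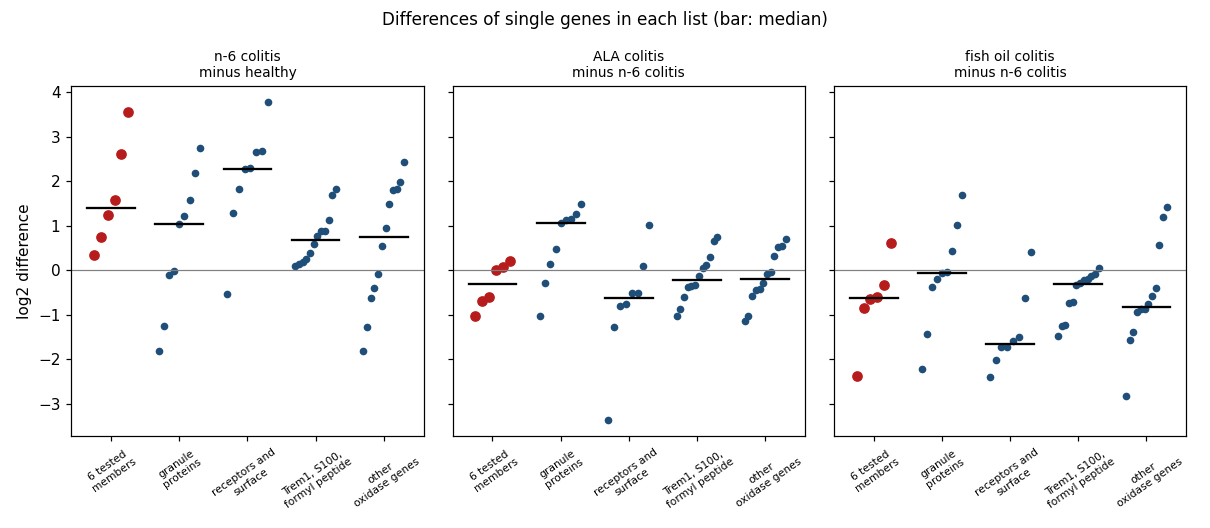
Log2 differences of the 6 tested members (red) and of each tested gene of the 4 related lists (blue), in order of size within a list, for n-6 colitis minus healthy, ALA minus n-6 and fish oil minus n-6; bars are medians. Between n-6 and healthy the medians are 1.41 for the members, 1.04, 2.28, 0.68 and 0.74 for the lists, and no list gene passed the adjusted threshold.

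Across the 8 arrays, the members correlated unevenly with each other, given here as a description over arrays that share groups, rats and a slide. S100a8 followed S100a9 (Pearson r = 0.917) and Csf3r (r = 0.917), Ncf1 followed Cybb (r = 0.823), and Cyba followed none of the other 8 above r = 0.332. Mpo ran opposite to Cybb (r = -0.826), with nearly all its values at background. Among 13171 named genes, those most like the mean of the 9 members were Kcnn3 (r = 0.972), Uqcc2 and Snap23, and those most like S100a8 were Slc41a1 (r = 0.982), Ndufa4 and Rspo3. Ncf1 was matched most closely by Rgs19 (r = 0.985), Cyb561a3 and Twf2, Cyba by Slc18a3 (r = 0.986), Qrfprl and Cib1, and Mpo by Fbxw17 (r = 0.928), Decr1 and Sstr1. With so many genes and 8 arrays, high values of r arise easily.

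The promoter letters of S100a9, Csf3r, Ncf1 and Cybb are shown because these 4 genes were each higher on all 6 colitis arrays than on both healthy ones. RefSeq promoters of the GRCr8 build were at hand for 8 of the 9 genes, S100a8 being the one without an entry, and the 250 bases before each gene's start were searched on both strands. The core GAGGAA of PU.1, a transcription factor of myeloid cells, was found in 5 of 8 members (S100a9, Mpo, Csf3r, Fpr1 and Cybb) and in 23.3% of the 33469 promoters of the table. TGANTCA (AP-1) was found in 1 of 8, Cybb, and in 6.34% of all. TTGCNNAA (C/EBP) and a motif of NF-kB of 10 letters were found in none of the 8, and in 9.22% and 1.3% of all. No matches overlapped each other. Capitals mark the matches, GAGGAA or its reverse complement and, in Cybb, also TGANTCA; the Ncf1 window held no match to any of the 4 motifs. The windows are chr2:178490623-178490872 (minus strand), chr5:143582970-143583219 (plus strand), chr12:28121635-28121884 (plus strand) and chrX:16065066-16065315 (minus strand).
S100a9: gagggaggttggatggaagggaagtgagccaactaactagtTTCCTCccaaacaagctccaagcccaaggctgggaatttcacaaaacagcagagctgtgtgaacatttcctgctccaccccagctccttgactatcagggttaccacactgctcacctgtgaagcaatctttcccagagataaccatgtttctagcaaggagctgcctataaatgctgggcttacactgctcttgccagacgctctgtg
Csf3r: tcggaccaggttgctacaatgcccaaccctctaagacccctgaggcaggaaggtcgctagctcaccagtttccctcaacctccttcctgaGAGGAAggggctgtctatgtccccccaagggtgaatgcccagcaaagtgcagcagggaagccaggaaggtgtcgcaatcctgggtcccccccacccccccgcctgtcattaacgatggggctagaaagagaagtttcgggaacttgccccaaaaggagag
Ncf1: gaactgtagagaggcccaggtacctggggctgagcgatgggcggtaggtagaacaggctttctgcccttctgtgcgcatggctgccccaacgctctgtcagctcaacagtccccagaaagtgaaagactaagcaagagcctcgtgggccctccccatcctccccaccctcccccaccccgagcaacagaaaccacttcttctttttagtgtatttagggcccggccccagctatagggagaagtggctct
Cybb: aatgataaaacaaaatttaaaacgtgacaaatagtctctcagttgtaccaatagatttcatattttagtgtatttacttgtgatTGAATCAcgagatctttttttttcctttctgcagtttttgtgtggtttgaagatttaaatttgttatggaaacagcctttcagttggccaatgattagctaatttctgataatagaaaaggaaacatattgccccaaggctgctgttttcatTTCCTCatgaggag
Counted from the gene's start, the PU.1 core begins at -209 in S100a9, -160 in Csf3r and -14 in Cybb, and the AP-1 match at -166 in Cybb. A match describes letters and shows no binding.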

How the data were processed

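Total colon RNA was measured on 8 one-colour Cy3 arrays, 2 per group, and grouped by the labels. The scanner files hold spot intensity values made with Agilent Feature Extraction 11.5.1.1, background-subtracted and detrended within each array, per the file headers. Probe positions are on rn4, per the file headers. The deposited value table holds log2 values whose 75th percentile is near 0 on each array; the sources used here do not give the step that joined probes, and the column medians ran from -3.18 to -2.89. It served as an alternative.

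Control and outlier spots were left out, spots of a probe averaged, and each array's 75th percentile of log2 signal subtracted. That percentile was a signal of 115.6 to 439.7 per array, and the number of arrays limits the precision. Probes well above background (in at least 0.5 of the spots) on both arrays of a group were kept, 20793 of 30367. The probe of highest mean level stood for a gene, which left 18165 genes, 13177 of them named through RefSeq GRCr8 symbols (names only).

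limma 3.58.1 in R 4.3.3 was fitted to all 8 arrays (4 residual and 3.01 prior degrees of freedom), with Benjamini-Hochberg adjustment over all genes at 0.05. The code was tested on simulated data. The alternatives were normexp (offset 50), quantile and median scaling, no filter or a stricter one, probe means, the deposited table, a trended robust prior, only the groups compared, a replicate block, a common floor (chosen after seeing the data) and leaving out each array. The members and lists were chosen with earlier results of these data known. All members are named; of each list, genes past the adjusted threshold or else the 3 with the highest mean level, and the 3 genes most like the members' mean and like 4 members. Python 3.11.15 read the files. All 8 arrays lay on 1 slide, ALA and healthy in row 1, fish oil and n-6 in row 2, ALA and fish oil in columns 1 and 2, healthy and n-6 in columns 3 and 4, so that position and group cannot be told apart.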

Additional observations from a re-analysis of the deposited data

How the results depend on the processing

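No member passed the adjusted threshold in any of the 8 comparisons under any of the 19 alternatives, so the count stayed at 0, with the lowest limma adjusted p at 0.0968 (S100a8 with the replicate block, n-6 against healthy). Of 896 member differences under the alternatives, 860 kept their sign. Against healthy colon, 1 sign turned, that of Cyba in n-6 colitis without n-6 replicate 2 (-0.14 to 0.81 for Cyba with arrays left out in turn). Between diets, the values that changed sign under other settings were as follows. For ALA against n-6, Ncf1 was -0.11 with median centring, Cybb -0.075 with quantile scaling, and Cyba 0.018 with normexp, 0.037 with quantile scaling and 0.018 in the deposited table. For fish oil against n-6, Csf3r was 0.17 and Cybb 0.19 with normexp. For ALA against fish oil, S100a9 was -0.011 with median centring, Csf3r -0.37 with normexp, -0.28 with quantile scaling and -0.0077 with the common floor, and Cybb -0.13 with normexp. For both n-3 diets against n-6, Cybb was 0.13 with normexp and 0.016 in the deposited table. With arrays left out in turn, differences that changed sign ranged from -1.48 to 0.27 for S100a9, -0.66 to 0.80 for Ncf1, -0.20 to 0.62 for Cybb, -0.48 to 0.47 for Cyba in ALA against n-6, from -1.47 to 0.17 for S100a9, -0.75 to 0.073 for Cybb in fish oil against n-6, from -0.83 to 0.92 for S100a9, -0.13 to 0.42 for Csf3r, -0.050 to 1.41 for Ncf1 in ALA against fish oil, and from -1.45 to 0.19 for S100a9, -0.64 to 0.095 for Ncf1, -0.48 to 0.35 for Cybb, -0.17 to 0.78 for Cyba in both n-3 diets against n-6. The cause of these changes was not tested. Leaving out an array leaves 1 in its group, which is then assumed to vary like the other groups.

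Median centring moved the median of all genes between n-6 and healthy from 0.03 to 0.16, and between fish oil and n-6 from 0.01 to -0.12. There quantile scaling gave -0.04 and normexp, a background correction, 0.23. The counts over all genes moved too, for n-6 against healthy from 7 to 69 with normexp, 29 with a trended robust prior, 17 with median centring and 0 with the deposited table, only the groups compared, or without either healthy array, either fish oil array or n-6 replicate 1. The replicate numbers are only shared: the correlation of same-numbered deviations ran from -0.166 to 0.467 between groups. With the replicate block the members' count was 0 in every comparison, while over all genes it was 13 for n-6 against healthy, 0 for ALA against n-6 (6 without it) and 5 for fish oil against n-6 (7 without it). With healthy signals of S100a8 and Csf3r near background, the size of their differences is limited by signal over background.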
